A study of Mus musculus with 8 samples.

Results

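The 10 genes *Itm2a*, *Spock2*, *Car4*, *Bsg*, *Tfrc*, *Pglyrp1*, *Ly6c1*, *Ly6a*, *Insr* and *Lrp8* were taken as enriched in brain endothelial cells (ECs) that form the blood-brain barrier, and are neither solute transporters nor tight junction genes. The ECs of other organs were not measured. They were chosen by name, with earlier results of these data known, and all 10 were found by Ensembl identifier among the 49315 genes counted. RNA was sequenced from brain ECs of 4 mutant and 4 wild-type pups at day 9 of life, 1 library per pup. Mutant pups carried 1 *R26*-targeted allele for *Map2k1* with the change K57N, which keeps the MAP2K1 kinase active, together with the *Tg-Cdh5CreER* transgene, in which the promoter of the EC gene *Cdh5* drives a Cre recombinase that tamoxifen switches on. All pups, the wild-type pups included, received tamoxifen at day 1 and came from lines backcrossed to C57BL/6J. The labels and the main text of the study call the RNA controls wild type, while the title of 1 of its gene lists names a control with *Tg-Cdh5CreER* alone. The allele is expressed from a strong artificial promoter. The study found it recombined in only a minority of the ECs from mutant brains, so each mutant library is a mixture of recombined and other cells. Levels given for mutant ECs are those of this mixture, not of recombined cells alone. Each litter gave as many wild-type as mutant pups, the former drawn at random. ECs were captured from collagenase-digested whole brain with beads that bind CD31.

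The blood-brain barrier is a property of the brain's capillary ECs, which seal the gaps between cells, suppress vesicle traffic, and replace free diffusion by carriers and receptors. Besides junctions and carriers, these cells express many surface and secreted proteins, some of them at levels above those of ECs elsewhere. The proteins include receptors that bring iron-loaded transferrin, insulin or lipoproteins to the cell, and enzymes and chaperones of the luminal membrane. A matrix proteoglycan and small proteins held by a glycosylphosphatidylinositol (GPI) anchor are others. Several are used as routes or targets to carry drugs and viral vectors into the brain.

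Levels are given as CPM, the counts of a gene per 1000000 counts of its library after TMM scaling. In mutant ECs 8 of the 10 genes were lower than in wild-type ECs and none was higher. *Car4*, *Tfrc* and *Spock2* fell the furthest, to 14.7%, 14.9% and 15.0% of their wild-type level. *Bsg* fell to 28.4%, *Pglyrp1* to 35.2%, *Itm2a* to 46.2%, *Lrp8* to 51.2% and *Ly6c1* to 60.1%. *Insr* and *Ly6a* did not pass the test. A gene was called where its p from the quasi-likelihood test of edgeR, adjusted by the Benjamini-Hochberg method over the 16887 genes tested, was under 0.05. Of all genes tested 44.4% were called, 22.9% as lower and 21.5% as higher. With the further limit of a 2-fold change, 6 of the 10 genes were lower and none higher, against 14.0% of all genes tested, 8.05% lower and 5.90% higher. In all 8 lower genes every mutant library was below every wild-type library. Such a separation was found in 42.5% of all genes tested, with the mutant below in 21.9% and above in 20.6%. The median log2 fold change was -1.31 over the 10 genes and -0.02 over all genes tested. Together the 10 genes took 1.91% ± 0.153 (SD, n = 4) of the counts in wild-type libraries and 0.476% ± 0.164 (SD, n = 4) in mutant libraries. In RNA from a pool of cells, fewer cells that express a gene and less RNA of that gene per cell cannot be told apart.

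**Figure D1:**
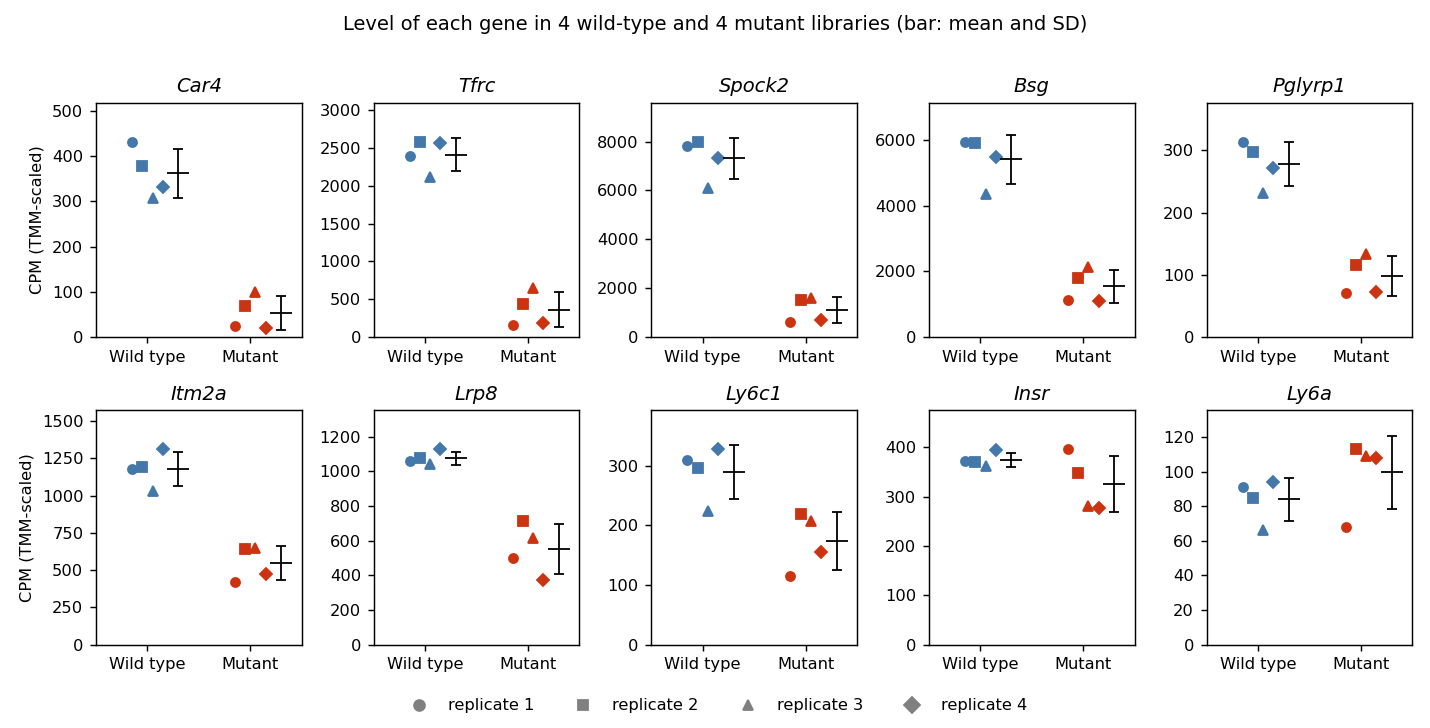
Level of each of the 10 genes in counts per 1000000 after TMM scaling (CPM, y axis from 0) in 4 wild-type (blue) and 4 mutant (red) libraries, with a marker shape for each replicate number and the mean and SD beside the points. The groups do not overlap in the 8 panels from *Car4* to *Ly6c1*, and they overlap for *Insr* and *Ly6a*.

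Total counts on genes ran from 24833373 to 34196955 per library. *Map2k1*, whose reads include those of the recombined allele, held 50.7 to 59.4 CPM in wild-type and 428 to 631 CPM in mutant libraries, with no overlap. The defining EC genes *Pecam1*, *Cdh5*, *Kdr*, *Flt1*, *Tek* and *Tie1* summed to 8252 to 9937 CPM in wild-type and 9252 to 11637 CPM in mutant libraries. In mutant ECs 2 of them were higher, *Cdh5* (1221 ± 86.5 to 2631 ± 424 CPM, SD, n = 4) and *Pecam1* (1225 ± 96.1 to 1764 ± 210). Another 2 were lower, *Kdr* (2318 ± 237 to 1540 ± 197) and *Tek* (854 ± 82.5 to 630.5 ± 48.7). The sum is thus not a fixed measure of EC content. Marker lists of other cells were summed in the same way. The lists for red cells, oligodendrocytes and lymphocytes were lower in every mutant than in every wild-type library, with 90.1 to 288 against 537 to 930.2 CPM, 91.7 to 139.5 against 156 to 380.1 CPM, and 3.37 to 9.48 against 9.84 to 15.4 CPM. The astrocyte sum, 654 to 769 against 442 to 513 CPM, was mostly *Gja1*, a connexin that rose from 376 ± 31.4 to 656 ± 72.4 CPM (SD, n = 4), while of the other 9 markers 3 were lower and none higher. The ranges overlapped for neurons, pericytes and smooth muscle, fibroblasts, microglia and macrophages, and neutrophils and monocytes. No marker found in the files was at 0 in all libraries.

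The receptors of the set are *Tfrc*, *Lrp8* and *Insr*, which bring their ligands into the cell. *Tfrc* (ENSMUSG00000022797, chromosome 16 from 32608920 to 32632794, plus strand of GRCm38) encodes the transferrin receptor, which takes up iron bound to transferrin and is the best known receptor for carrying antibodies across the barrier. In wild-type libraries 1 to 4 *Tfrc* stood at 2390.2, 2583, 2117 and 2566 CPM, and in mutant libraries 1 to 4 at 154, 439, 652 and 189 CPM. The mutant libraries were all far below the wild-type range, and mutant libraries 1 and 4 were well below 2 and 3. The mean was 2414 ± 216 (SD, n = 4) in wild-type and 359 ± 233 (SD, n = 4) in mutant ECs, a 6.73-fold difference (log2 fold change -2.75, standard error 0.40, adjusted p = 3.97e-04, edgeR's quasi-likelihood test, as for all adjusted p given here). Erythroid precursors also express *Tfrc*, and 7 of the 9 red cell markers found were lower in mutant ECs. Their summed level was 90.1 to 288 CPM in mutant and 537 to 930.2 CPM in wild-type libraries. The part of red cells in the difference in *Tfrc* was not tested.

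The *Tfrc* messenger RNA is known to be stabilised in cells short of iron, through hairpins in its 3′ untranslated region that iron regulatory proteins bind. These hairpins are printed because they are the best known control element of *Tfrc*, 1 of the genes that fell the furthest. The hairpin was searched as a C, 5 bases, a loop of CAGTG and 1 further base, and 5 bases that pair with the 5 before the loop, with G-T pairs allowed, in the longest coding transcript of each gene in GENCODE vM21. It was found 4 times in *Tfrc*, on the plus strand of chromosome 16 of GRCm38 at 32631220 to 32631246, 32631599 to 32631625, 32631664 to 32631690 and 32631711 to 32631737. At least 1 match was found in 1.24% of 21901 genes, and 4 or more in *Tfrc* alone. Single matches lay in the 5′ untranslated regions of *Slc40a1* (chromosome 1, 45925466 to 45925492, minus strand), *Fth1* (chromosome 19, 9982733 to 9982759, plus strand) and *Ftl1* (chromosome 7, 45459780 to 45459806, minus strand), where binding is known to block translation. Each is given below 5′ to 3′ over 27 bases, with the CAGTG of the loop in capitals and its further base in small letters.
Tfrc element 1: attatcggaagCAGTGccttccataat
Tfrc element 2: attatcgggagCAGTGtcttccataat
Tfrc element 3: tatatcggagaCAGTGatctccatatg
Tfrc element 4: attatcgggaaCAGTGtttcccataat
Slc40a1: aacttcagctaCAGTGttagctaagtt
Fth1: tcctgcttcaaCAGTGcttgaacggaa
Ftl1: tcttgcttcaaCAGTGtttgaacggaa

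The other genes of iron handling went in both directions. Of 17 tested, 7 were higher and 6 lower in mutant ECs, with a median log2 fold change of -0.03. *Trf*, which encodes transferrin, rose from 34.5 ± 3.94 to 115 ± 26.4 CPM (SD, n = 4, log2 fold change 1.74, adjusted p = 1.98e-05). *Slc40a1*, which encodes ferroportin, the exporter of iron from cells, fell from 622 ± 51.5 to 206 ± 44.8 CPM (SD, n = 4, log2 fold change -1.59, adjusted p = 3.12e-05). *Slc39a14*, an importer of iron that is not bound to transferrin, rose (log2 fold change 1.25, adjusted p = 2.50e-04). The ferritin chains, which store iron, had log2 fold changes of -0.46 for *Fth1* and 0.34 for *Ftl1* (adjusted p = 0.00120 and 0.0337).

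*Lrp8* (ENSMUSG00000028613, chromosome 4 from 107802261 to 107876840, plus strand) encodes a lipoprotein receptor that binds reelin, apolipoprotein E and selenoprotein P. *Lrp8* held 1060.4, 1074, 1041 and 1126 CPM in wild-type libraries 1 to 4 and 499, 711, 618 and 374 CPM in mutant libraries 1 to 4. The wild-type libraries lay close together, and the highest mutant library was well below them. The difference was 1.95-fold (mean 1075 ± 36.6 CPM in wild-type and 550.4 ± 146 CPM in mutant ECs, SD, n = 4, log2 fold change -0.97, standard error 0.16, adjusted p = 9.69e-04), just short of the 2-fold limit, while *Itm2a* lay just past it. Neurons express *Lrp8* too, and of 10 neuron markers 6 were lower and 1, *Nefl*, higher in mutant ECs. The whole neuron list summed to 30.7 to 47.5 CPM in mutant and 47.0 to 107 CPM in wild-type libraries. Its part in the difference was not tested. Of the 17 other genes tested among receptors for reelin and apolipoproteins, their ligands and adaptors, 8 were lower and 2 higher. *Vldlr*, the other receptor for reelin, was low in wild-type ECs and rose, with 4.54 ± 1.24 CPM in wild-type and 20.5 ± 6.39 in mutant ECs (SD, n = 4, log2 fold change 2.17, adjusted p = 8.82e-05). *Reln*, which encodes reelin, fell (log2 fold change -2.29, adjusted p = 0.00687), and its libraries overlapped between the groups. Without wild-type library 3 its log2 fold change was -1.52 (adjusted p = 0.00980, against 3.79e-04 to 0.0235 over all alternatives). *Selenop*, which encodes selenoprotein P, fell with a log2 fold change of -0.95 (adjusted p = 7.70e-04).

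*Insr* (ENSMUSG00000005534, chromosome 8 from 3122061 to 3279617, minus strand) encodes the insulin receptor, which on brain ECs binds circulating insulin. Its level was 372, 371, 362 and 395 CPM in wild-type libraries 1 to 4, and 396, 348, 281 and 277 CPM in mutant libraries 1 to 4. Mutant libraries 2 to 4 were below the wild-type range, library 2 narrowly, and mutant library 1 was above all wild-type libraries. The difference did not pass the test (mean 375 ± 14.1 CPM in wild-type and 326 ± 57.2 CPM in mutant ECs, SD, n = 4, log2 fold change -0.20, standard error 0.11, adjusted p = 0.169), and its 95% interval ran from -0.46 to 0.05 on the log2 scale. Without mutant library 1 it passed, with a log2 fold change of -0.29 (adjusted p = 0.0357, against 0.0357 to 1 over all alternatives). Of 17 other genes tested in insulin signalling, 6 were higher and 6 lower. *Grb14*, an adaptor that inhibits the insulin receptor, fell from 41.1 ± 3.66 to 6.44 ± 3.26 CPM (SD, n = 4, log2 fold change -2.68, adjusted p = 8.71e-05). *Ptpre*, a receptor-type tyrosine phosphatase, rose (log2 fold change 1.97, adjusted p = 9.02e-05), and so did *Enpp1*, a surface pyrophosphatase that inhibits the receptor (log2 fold change 1.10, adjusted p = 0.00208).

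*Car4* and *Bsg* encode proteins of the luminal membrane that serve other reactions there. *Car4* (ENSMUSG00000000805, chromosome 11 from 84957786 to 84966044, plus strand) encodes a GPI-anchored carbonic anhydrase of capillaries, which speeds the exchange of carbon dioxide and bicarbonate. In wild-type libraries 1 to 4 *Car4* stood at 431, 377, 306 and 331 CPM, and in mutant libraries 1 to 4 at 23.9, 67.9, 100.4 and 19.8 CPM. It had the lowest mutant level relative to wild type of all 10 genes, and its mutant libraries differed 5.07-fold from lowest to highest. The difference was 6.82-fold (mean 362 ± 55.1 CPM in wild-type and 53.0 ± 38.4 CPM in mutant ECs, SD, n = 4, log2 fold change -2.77, standard error 0.46, adjusted p = 8.02e-04). Among other carbonic anhydrases and the bicarbonate and proton carriers listed with them, 6 of 16 tested were higher and 4 lower. *Car13*, a cytosolic enzyme, rose from a low level to 6.88 ± 2.48 CPM (SD, n = 4, log2 fold change 2.88, adjusted p = 2.36e-04). *Car14*, a membrane enzyme, and *Slc4a4*, a sodium bicarbonate cotransporter, fell (log2 fold changes -1.34 and -1.08, adjusted p = 0.00236 and 0.00102).

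*Bsg* (ENSMUSG00000023175, chromosome 10 from 79704491 to 79711969, plus strand) encodes basigin, an immunoglobulin-type protein that brings monocarboxylate transporters to the cell surface. *Bsg* held 5943, 5905, 4344 and 5474 CPM in wild-type libraries 1 to 4 and 1121, 1791, 2136 and 1107 CPM in mutant libraries 1 to 4. Mutant libraries 1 and 4 were nearly equal and lowest. The difference was 3.52-fold (mean 5416 ± 746 CPM in wild-type and 1539 ± 510.4 CPM in mutant ECs, SD, n = 4, log2 fold change -1.82, standard error 0.22, adjusted p = 1.18e-04). Per length, *Bsg* was the most abundant of the 10 genes in both groups, at 11229 ± 1253 TPM (transcripts per 1000000, SD, n = 4) in wild-type and 3071 ± 1059 TPM in mutant ECs. *Slc16a1*, which encodes MCT1, the lactate carrier that needs basigin, fell from 2447 ± 236 to 680.1 ± 271 CPM (SD, n = 4, log2 fold change -1.85, adjusted p = 2.61e-04). *Slc16a3*, which encodes MCT4, another carrier that needs basigin, rose from a low level (log2 fold change 2.04, adjusted p = 8.20e-05). *Mmp14*, a membrane-bound matrix protease, rose from 77.7 ± 1.97 to 285 ± 70.5 CPM (SD, n = 4, log2 fold change 1.88, adjusted p = 9.57e-06). In all, 5 of 12 genes listed with basigin were higher and 3 lower.

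*Spock2* and *Pglyrp1* encode secreted proteins. *Spock2* (ENSMUSG00000058297, chromosome 10 from 60106219 to 60135198, plus strand) encodes testican-2, a proteoglycan of the extracellular matrix. Its level was 7824, 7988, 6118 and 7313 CPM in wild-type libraries 1 to 4, and 606, 1531, 1576 and 684 CPM in mutant libraries 1 to 4. Its highest mutant library was 3.88-fold below its lowest wild-type library. The difference was 6.65-fold (mean 7310.4 ± 846 CPM in wild-type and 1099 ± 526 CPM in mutant ECs, SD, n = 4, log2 fold change -2.73, standard error 0.31, adjusted p = 8.83e-05). Neurons express *Spock2* as well, and the neuron list summed to 30.7 to 47.5 CPM in mutant and 47.0 to 107 CPM in wild-type libraries. Its part in the difference was not tested. Of 7 related genes tested, 1 was higher and 2 lower. The close relatives *Spock1* and *Spock3* were too low to be tested. The related matrix genes *Sparc* and *Sparcl1*, both abundant in ECs, did not pass the test (log2 fold changes 0.06 and 0.08, adjusted p = 0.648 and 0.579), and *Fstl1*, a secreted glycoprotein, rose (log2 fold change 1.16, adjusted p = 7.05e-05).

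*Pglyrp1* (ENSMUSG00000030413, chromosome 7 from 18871331 to 18890459, plus strand) encodes a secreted protein that binds bacterial peptidoglycan. In wild-type libraries 1 to 4 *Pglyrp1* stood at 314, 297, 232 and 272 CPM, and in mutant libraries 1 to 4 at 70.2, 116, 133 and 71.8 CPM. The groups were clearly apart, with a 2.84-fold difference (mean 279 ± 35.5 CPM in wild-type and 97.9 ± 31.8 CPM in mutant ECs, SD, n = 4, log2 fold change -1.51, standard error 0.21, adjusted p = 2.51e-04). Neutrophils store this protein, and the list of neutrophil and monocyte markers summed to 20.9 to 45.0 CPM in wild-type and 21.1 to 32.0 CPM in mutant libraries, with 1 of 9 markers tested lower. Their part in the difference was not tested. *Pglyrp2*, *Pglyrp3* and *Pglyrp4* were too low to be tested.

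*Itm2a* (ENSMUSG00000031239, chromosome X from 107397099 to 107403376, minus strand) encodes a membrane protein with a BRICHOS domain. *Itm2a* held 1181, 1194, 1033 and 1309 CPM in wild-type libraries 1 to 4 and 420.2, 639, 646 and 475 CPM in mutant libraries 1 to 4. The difference was 2.16-fold (mean 1179.7 ± 113 CPM in wild-type and 545 ± 115 CPM in mutant ECs, SD, n = 4, log2 fold change -1.11, standard error 0.14, adjusted p = 1.91e-04), and the lowest wild-type library was 1.60-fold above the highest mutant library. The gene lies on the X chromosome, and by *Xist* and Y-linked genes 1 mutant and 2 wild-type pups were female. With sex as a covariate the log2 fold change was -1.17 (adjusted p = 1.94e-04). The relatives of *Itm2a* went apart, *Itm2c* rising from 169.6 ± 6.12 to 409 ± 113 CPM (SD, n = 4, log2 fold change 1.27, adjusted p = 1.60e-04) and *Itm2b* falling slightly (log2 fold change -0.27, adjusted p = 0.00522).

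*Ly6c1* and *Ly6a*, both on chromosome 15, encode small GPI-anchored proteins of the LY6 family. *Ly6c1* (ENSMUSG00000079018, chromosome 15 from 75044018 to 75048830, minus strand) is widely used to mark brain capillary ECs. Its level was 310.1, 297, 224 and 327 CPM in wild-type libraries 1 to 4, and 114, 219.9, 207 and 155 CPM in mutant libraries 1 to 4. The groups were apart by a narrow margin, since mutant library 2 was only 1.02-fold below wild-type library 3. The difference was 1.66-fold (mean 289.7 ± 45.3 CPM in wild-type and 174 ± 48.9 CPM in mutant ECs, SD, n = 4, log2 fold change -0.73, standard error 0.19, adjusted p = 0.0110), and tested against a log2 fold change of 0.5 it did not pass (adjusted p = 0.194, against 9.36e-04 to 0.194 over all alternatives). Of the 100-base stretches in its transcripts, 10.1% also occur in another gene, mostly in *Ly6c2*, so some reads may have been left out or split in counting. *Ly6c2* itself was near 0, with a wild-type mean of 0.800 ± 0.226 CPM (SD, n = 4), and did not pass the test (log2 fold change -0.67, adjusted p = 0.150).

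*Ly6a* (ENSMUSG00000075602, chromosome 15 from 74994877 to 74998031, minus strand) encodes Sca-1, the receptor through which some engineered viral vectors enter the brain of certain mouse strains. In wild-type libraries 1 to 4 *Ly6a* stood at 91.2, 84.8, 66.1 and 94.0 CPM, and in mutant libraries 1 to 4 at 68.1, 113, 109 and 108 CPM. Mutant libraries 2 to 4 were above all wild-type libraries, while mutant library 1 was near the lowest of them. The difference did not pass the test (mean 84.0 ± 12.6 CPM in wild-type and 99.6 ± 21.1 CPM in mutant ECs, SD, n = 4, log2 fold change 0.25, standard error 0.16, adjusted p = 0.240), with a 95% interval from -0.11 to 0.60 on the log2 scale. Without mutant library 1 *Ly6a* was higher in mutant ECs, with a log2 fold change of 0.42 (adjusted p = 0.0156, against 0.0156 to 1 over all alternatives). Lymphocytes also express *Ly6a* and *Itm2a*, and the lymphocyte list, given above, was lower in mutant libraries. Its part in the values of both genes was not tested. Among the other LY6 genes, 14 of 28 were tested, of which 6 were lower and 2 higher, most at low levels. *Gpihbp1*, which carries lipoprotein lipase across capillary ECs, rose from 3.60 ± 0.556 to 9.61 ± 3.02 CPM (SD, n = 4, log2 fold change 1.41, adjusted p = 6.87e-04), and *Lypd6* and *Lynx1* fell (log2 fold changes -1.32 and -1.10, adjusted p = 3.41e-04 and 0.00899).

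**Figure D2:**
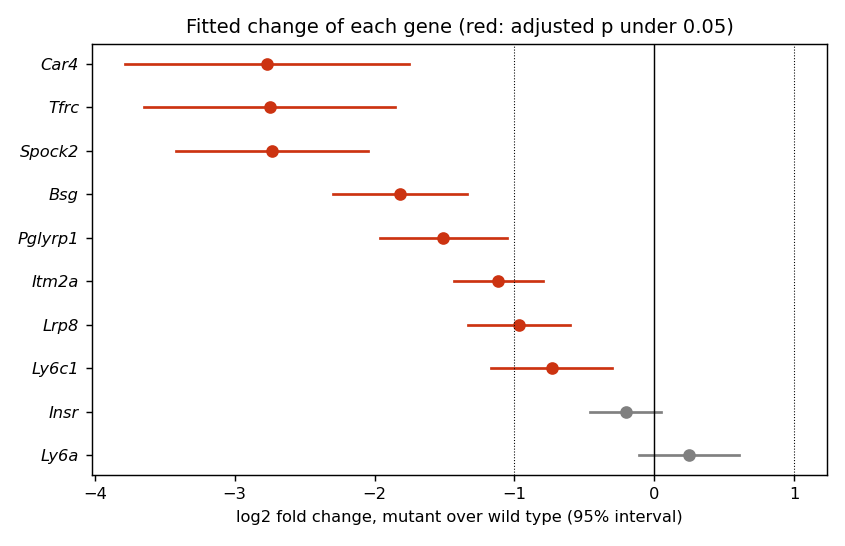
Fitted log2 fold change of mutant over wild-type ECs (x axis) for each of the 10 genes, with the 95% interval as a line, in red where the adjusted p was under 0.05 and in grey otherwise; dotted lines mark a 2-fold change. The estimates run from -2.77 for *Car4* to 0.25 for *Ly6a*, and only the intervals of *Insr* and *Ly6a* reach across 0.

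The libraries varied together over these genes. Mutant libraries 1 and 4 were the lowest pair for all 8 genes that fell. Relative to the wild-type mean, mutant library 1 was at -3.97 (log2) for *Tfrc*, -3.92 for *Car4* and -3.59 for *Spock2*, and mutant library 3 was at -1.89, -1.85 and -2.21 for the same genes. Mutant library 1 also held the most *Map2k1*, at 631 CPM, and mutant library 4 was next at 483 CPM, with 428 CPM in both others, and any relation over the 4 libraries was not tested. Among wild-type libraries, replicate 3 was the lowest in CPM for all 8 genes, and for *Insr* and *Ly6a* too. It had the largest TMM factor of the libraries, 1.07. In TPM, which has no TMM scaling, it was not the lowest for *Lrp8* (392, against 373 to 397 in the others) or *Insr* (104, against 100 to 107). The sum of the defining EC genes in wild-type library 3 was also the lowest, at 8252 CPM against 9786 to 9937 CPM in the other wild-type libraries. The part of this in the levels of the 10 genes was not tested. Each of the 10 genes varied more, relative to its mean, among mutant than among wild-type libraries. The shares of all genes tested with the same lowest libraries, or with a wider spread in mutants, were not counted. These traits are thus not shown to be particular to the 10 genes. The library labels carry 3 prefixes, each with both conditions, and what a prefix stands for is not stated. Since every mutant library was below every wild-type library for these 8 genes, all 8 were bound to be lower in the mutant within each prefix. Only the size of the difference is therefore informative here. The log2 differences ran from -3.32 to -0.84 over the prefix of replicates 1 and 2, from -1.96 to -0.11 over that of replicate 3, and from -4.06 to -1.08 over that of replicate 4. The value nearest 0 was that of *Ly6c1* for replicate 3.

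**Figure D3:**
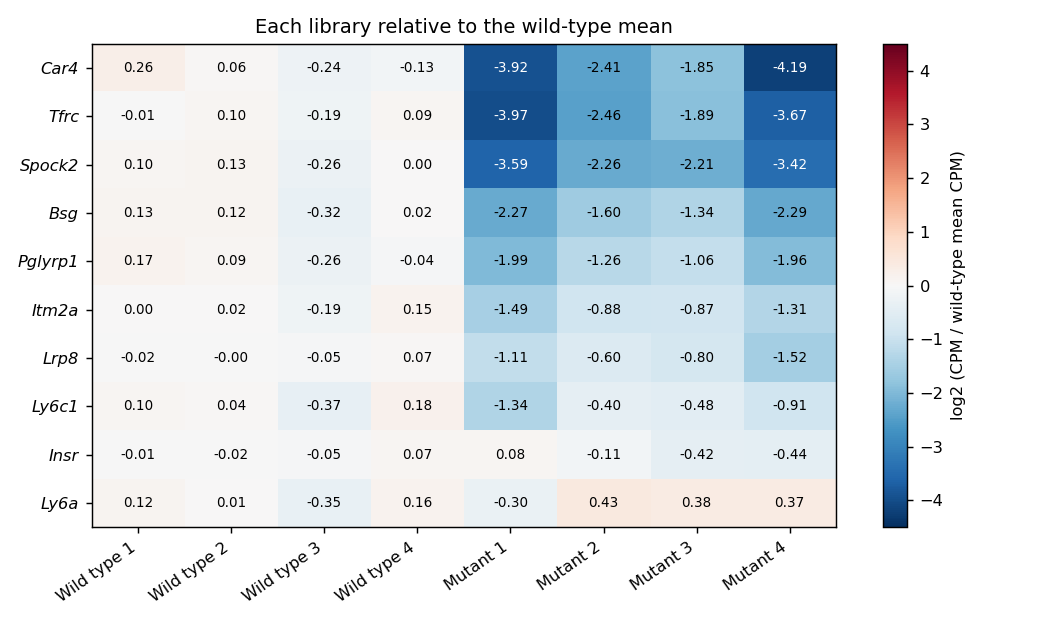
log2 ratio of the CPM in each library to the wild-type mean of the gene, for the 10 genes (rows, ordered by fitted change) and 8 libraries (columns), with the value printed in each cell and blue for lower. Mutant libraries 1 and 4 are bluest in the 8 upper rows, down to -4.19 for *Car4* in mutant library 4.

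The order of levels per length also differed between the groups. In wild-type ECs the means, in TPM, ran from *Bsg* (11229 ± 1253, SD, n = 4) through *Spock2* (4972 ± 446), *Itm2a* (2547 ± 182), *Tfrc* (1469.5 ± 94.8), *Car4* (692 ± 91.8), *Ly6c1* (649 ± 84.4), *Pglyrp1* (571 ± 58.7), *Lrp8* (386 ± 10.7) and *Ly6a* (262 ± 32.2) to *Insr* (103 ± 3.03). Only *Car4* and *Ly6c1*, and *Ly6c1* and *Pglyrp1*, overlapped between neighbours. In mutant ECs *Bsg* was still first, at 3071 ± 1059 TPM, followed by *Itm2a* at 1131 ± 254 and *Spock2* at 720.2 ± 352. *Ly6c1* (376 ± 110.3) and *Ly6a* (299 ± 67.9) then stood above *Tfrc* (211 ± 139.5), and *Car4* (98.0 ± 72.0) was near the bottom with *Insr* (85.2 ± 13.2). There the libraries of each neighbouring pair after *Bsg* overlapped.

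For each gene past the 2-fold limit, the gene of most similar pattern was taken as the one with the smallest root mean square difference of mean-centred log2 CPM over the 8 libraries, among 11775 genes whose normalized counts averaged 100 or more in 1 of the groups. *Notum*, which encodes a secreted enzyme that inactivates Wnt proteins, was nearest both to *Tfrc* (difference 0.0963) and to *Car4* (0.151), and itself had a log2 fold change of -2.79 (adjusted p = 2.98e-04). *Nkd1*, an inhibitor of Wnt signalling inside the cell, was nearest to *Spock2* (0.0973, log2 fold change -2.62, adjusted p = 1.26e-04). *Notum* overlaps *Notumos*, a gene on the opposite strand, and without strand their reads cannot be told apart. *Notum* and *Nkd1* are known targets of Wnt and beta-catenin signalling. *Afap1l2* was nearest to *Bsg* (0.0873), *Dnm3* to *Itm2a* (0.0735) and *Fam189a2* to *Pglyrp1* (0.0448). The likeness is a description of these 8 libraries, and the difference between the groups is part of it.

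RefSeq start sites of GRCm38.p6 were given for 7 of the 10 genes. The promoters of the 3 genes that fell the furthest are printed from 250 bases before to 50 bases after the start, 5′ to 3′ on the strand of the gene. They were searched on both strands for CTTTGA, a core of sites for TCF and LEF factors of the Wnt pathway, TGANTCA for AP-1, CCGGAAG for ETS factors and TGACGTCA for CREB and ATF factors, with matches in capitals. *Spock2* (chr10:60106007-60106306, plus strand) held 1 match to CTTTGA, 133 bases before the start. *Car4* (chr11:84957504-84957803, plus strand) held 1 match to CCGGAAG on its reverse strand, 200 bases before the start. *Tfrc* (chr16:32608646-32608945, plus strand) held no match to any of these strings. Shorter or other forms of the sites were not searched.
Spock2: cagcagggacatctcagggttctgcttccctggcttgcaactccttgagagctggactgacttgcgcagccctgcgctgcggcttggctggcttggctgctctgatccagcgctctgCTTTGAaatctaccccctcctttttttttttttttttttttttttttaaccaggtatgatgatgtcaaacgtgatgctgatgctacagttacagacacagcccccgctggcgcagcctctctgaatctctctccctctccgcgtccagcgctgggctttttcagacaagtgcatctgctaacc
Car4: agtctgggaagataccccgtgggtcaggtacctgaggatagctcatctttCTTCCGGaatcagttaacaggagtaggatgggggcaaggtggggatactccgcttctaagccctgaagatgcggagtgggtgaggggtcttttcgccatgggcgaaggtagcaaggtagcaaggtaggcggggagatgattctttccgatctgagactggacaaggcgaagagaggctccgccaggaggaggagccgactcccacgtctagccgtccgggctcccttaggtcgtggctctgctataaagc
Tfrc: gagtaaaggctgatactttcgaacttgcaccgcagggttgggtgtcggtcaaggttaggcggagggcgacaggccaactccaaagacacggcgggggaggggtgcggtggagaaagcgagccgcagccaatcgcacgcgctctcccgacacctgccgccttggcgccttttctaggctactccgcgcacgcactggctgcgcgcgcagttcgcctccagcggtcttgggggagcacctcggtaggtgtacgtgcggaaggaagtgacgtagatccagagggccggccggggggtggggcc

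Over the 7 promoters, CTTTGA and CCGGAAG were each found in 1 and the other motifs in none. Of 32851 promoters of the same length, 16% held CTTTGA, 7.81% the AP-1 motif, 8.86% CCGGAAG and 1.79% the CREB and ATF motif. Where RefSeq gave several starts, the one nearest the annotated 5′ end of the gene was used.

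Other barrier genes are given for comparison. Of 18 transporters of the brain endothelium, 15 were lower and 1 higher in mutant ECs, with a median log2 fold change of -1.31, and 11 passed the 2-fold limit. *Slc22a8*, a carrier of organic anions, had a log2 fold change of -2.57 (adjusted p = 5.53e-05), *Mfsd2a*, a carrier of lysophospholipids that keeps vesicle traffic low, -2.34 (adjusted p = 1.19e-04) and *Slc38a5*, a carrier of glutamine, -2.25 (adjusted p = 3.97e-05). Of 14 tight junction genes tested, 7 were lower and 2 higher, with a median of -0.48. The largest falls there were in *Ildr2*, *Jam2* and *Lsr* (log2 fold changes -1.90, -1.36 and -1.15). Of 18 genes shared by all endothelium, 5 were lower and 6 higher, with a median of -0.03. *Clec14a*, *Cdh5* and *Emcn* rose (log2 fold changes 1.17, 1.11 and 0.82). The difference between these lists and the 10 genes was not tested.

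**Figure D4:**
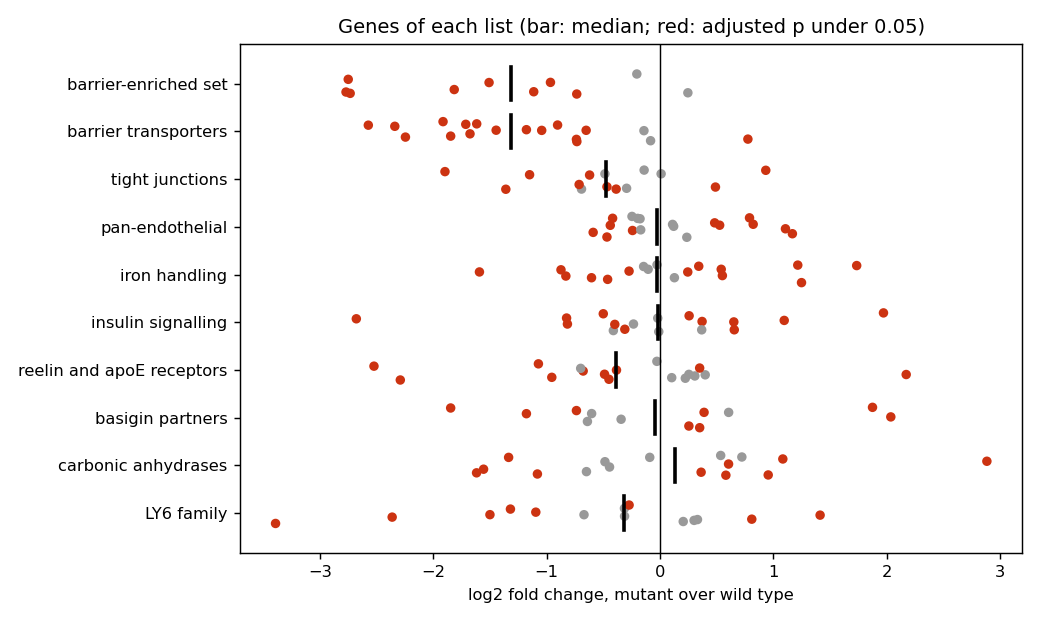
log2 fold change of mutant over wild-type ECs (x axis) for each tested gene of the 10-gene set, of 3 lists of endothelial genes and of 6 lists of related genes (rows), with a bar at the median and red for an adjusted p under 0.05. The medians of the barrier-enriched set and of the transporters lie at -1.31, and that of the pan-endothelial genes lies at -0.03.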

How the data were processed

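Brain ECs of 4 mutant and 4 wild-type pups were measured by RNA sequencing of poly(A)+ RNA, 1 library per pup. A sequencing company trimmed the reads (Trimmomatic) and aligned them to GRCm38 (STAR), and the authors deposited whole-number counts per gene without normalization. How the reads were counted, against which annotation, with or without strand, and what became of multiply mapped reads is not given in the sources used here, which bears on *Ly6c1*, *Ly6c2* and *Notum*. No exon of the 10 genes overlaps an exon of another gene. A table of values normalized by DESeq2 was not used here. Symbols (48970 of 49315 identifiers) and transcripts came from GENCODE vM21.

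The comparison used edgeR 4.0.16 and limma 3.58.1 under R 4.3.3. Genes were filtered with filterByExpr (minimum count 10, 16887 genes kept), scaled by TMM and compared with glmQLFit and glmQLFTest without covariates. CPM is per 1000000 counts after TMM, and TPM uses the gene lengths in the count files. The standard error is the log2 fold change divided by the root of the F statistic. Genes were called at an adjusted p under 0.05. Counting error is small at the depth of these libraries, so the spread between pups limits the precision. Libraries of a condition differed by more than sampling noise (chi-square per degree of freedom 7.30 to 41.6 over 12 pairs). The fit was tested on simulated counts.

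The members and the lists of related genes and cell markers were chosen with earlier results of these data known. Named are the 10 genes, up to 3 called genes per list by size of change whose normalized counts averaged 100 or more in 1 of the groups, and the gene most alike in pattern for members past 2-fold. *Fth1*, *Ftl1*, *Selenop*, *Sparc*, *Sparcl1*, *Ly6c2*, *Gja1* and *Nefl* were added after their values were seen. 1 gene that the rule names is not reported here. Alternatives were DESeq2 1.42.0, its size factors in edgeR, other filters, a test against a log2 change of 0.5 (glmTreat), blocks for replicate number and label prefix, each library left out, and, added after the data were seen, sex as a covariate.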

Additional observations from a re-analysis of the deposited data

Results flagged for a closer look

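In 3 of the 92 groups of 4 libraries examined, 46 genes in 2 conditions, 1 library stood far from the others, by a gap to the nearest of 0.896 to 0.934 of the range (past Dixon's 95% limit for 4 samples, which chance passes in about 1 of 20 groups). *Ly6a* was 68.1 CPM in mutant library 1, against 108 to 113 in the other mutant libraries. *Slc16a3*, which encodes MCT4, was 42.5 CPM in mutant library 1, against 24.2 to 25.4. *Enpp1* was 9.86 CPM in mutant library 3, against 6.22 to 6.57.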

How the results depend on the processing

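Of 160 values for the 10 genes under 16 alternatives, 157 kept their direction and side of the threshold, and none changed direction. The exceptions are those of *Ly6c1*, *Ly6a* and *Insr* given above. The number of genes lower in mutant ECs was 8 under DESeq2, its size factors in edgeR, both other filters, the label prefix block and sex as a covariate, and 7 when tested against a log2 change of 0.5. With each library left out in turn it was 8 to 9, the number higher was 0 to 1, and the number past 2-fold was 5 to 7. The value 9 and the value 1 arose without mutant library 1. The block on replicate number gave 8 lower genes and 7 past 2-fold, with 8162 genes called in all against 7504. With the block on label prefix 8610 genes were called in all. Deviations of same-numbered libraries correlated at 0.201, 0.210, 0.290 and 0.0241. Mutant libraries 1 and 2 correlated best with wild-type library 1, which carries their label prefix, and mutant libraries 3 and 4 with wild-type library 3. Not every library thus correlated best with its own number, so the numbers were not taken to pair single pups. This does not speak against a block on prefix or litter. The main test had no block, although the study matched pups within litters. Over all genes, 2527 were called against a log2 change of 0.5, and 1224 passed 2-fold with at least 100 counts in 4 libraries, against 2356; the latter filter tests fewer genes. *Lynx1* and *Itm2b* did not pass the test against 0.5 (adjusted p = 0.0617 and 1). The 4 pups per group, not counting error, set the standard errors of the 10 genes.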

Other observations

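*Rasgrp4*, which encodes a guanine nucleotide exchange factor for RAS, was among the 3 genes of most similar pattern for *Spock2*, *Car4* and *Tfrc*, with root mean square differences of 0.140, 0.264 and 0.198 on the log2 scale, and was lower in mutant ECs (log2 fold change -2.69, adjusted p = 1.20e-04). *Slc22a8*, the organic anion carrier named above, was also among the 3 nearest to *Spock2* (0.147), and *Slc16a4*, another monocarboxylate carrier gene, among the 3 nearest to *Bsg* (0.108, log2 fold change -1.85). *Rasgrp4* and *Slc16a4* were chosen after their values were seen.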
